A study of Drosophila melanogaster with 3 samples.

Results

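Df31, HP1a, Asx and Nasp are 4 genes for chromatin proteins whose transcripts carried called binding intervals of Aubergine (Aub) in cultured Drosophila germline stem cells. They were selected by their FlyBase gene IDs, FBgn0022893, FBgn0003607, FBgn0261823 and FBgn0037624, out of 6502 genes with any interval. Together they held 83 of 51962 intervals (0.160%). The choice was made with earlier results of these data known, so their levels and their recurrence are given as a description without a test. RefSeq's gene table (assembly Release 6) pairs the IDs of Asx and Nasp with these symbols and that of HP1a with a gene for which it lists HP1a as a synonym. The ID of Df31 was paired with its symbol by the list that chose the genes. The table places all 4 genes on the chromosome on which the intervals lie.

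The study used iCLIP, in which ultraviolet light crosslinks a protein to bound RNA and the RNA recovered with the protein is sequenced. The cell line carried UASp-GFP-aub over a wild-type (+) chromosome, together with bam∆86hs-bam and nos-gal4 bam∆86, and received no drug. In this system the germline driver nos-gal4 switches on the UASp transgene, so the protein purified was GFP-tagged Aub made from a transgene. All 3 libraries came from cells of this genotype exposed to 150 mJ/cm2 at 254 nm, and they form a single group. No control library was analysed here. Whether each library had its own culture is not stated in the labels, and the spread over libraries could be purely technical.

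Aub is a Piwi-family Argonaute protein of the germline. It carries piRNAs, which guide it to transposon transcripts and to some messenger RNAs. HP1a binds methylated lysine on histone H3 and is a core protein of heterochromatin whose gene is known for mutations that suppress position-effect variegation. Asx encodes Additional sex combs, the partner of the enzyme Calypso in the Polycomb deubiquitinase that acts on histone H2A. Nasp encodes a chaperone of histones H3 and H4. Df31 encodes Decondensation factor 31, a histone-binding protein that also associates with RNA in chromatin.

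The libraries differed in size. Replicates 1, 2 and 3 held 4007, 36157 and 11798 intervals in 1459, 6364 and 3310 genes, and the depth in reads is unknown. A single interval therefore weighed most in replicate 1. Each interval was a position with no height or p-value, because the deposited score was 0 throughout. Markers of germline cells and of other gonad or blood cells (16 symbols each) had no ID that could be matched, so the cell type was not checked here. No transcript annotation or sequence of dm3, the build of the files, was used here, so exons, introns and UTRs are not assigned.

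All 4 genes had at least 1 interval in each library, as did 1361 of the 6502 genes (20.9%). In replicates 1, 2 and 3, Df31 had 7, 13 and 14 intervals. HP1a had 2, 10 and 1 in the same order. Df31 was thus the member with most intervals in replicates 1 and 3, and HP1a had a single interval in replicate 3. For Asx the counts were 1, 17 and 6, and for Nasp 1, 8 and 3. Asx led in replicate 2, the largest library, and Asx and Nasp each rested on a single interval in replicate 1. None of the 83 intervals was also assigned to a second gene, and no interval of another gene lay within the span of any of the 4 on either strand.

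**Figure D1:**
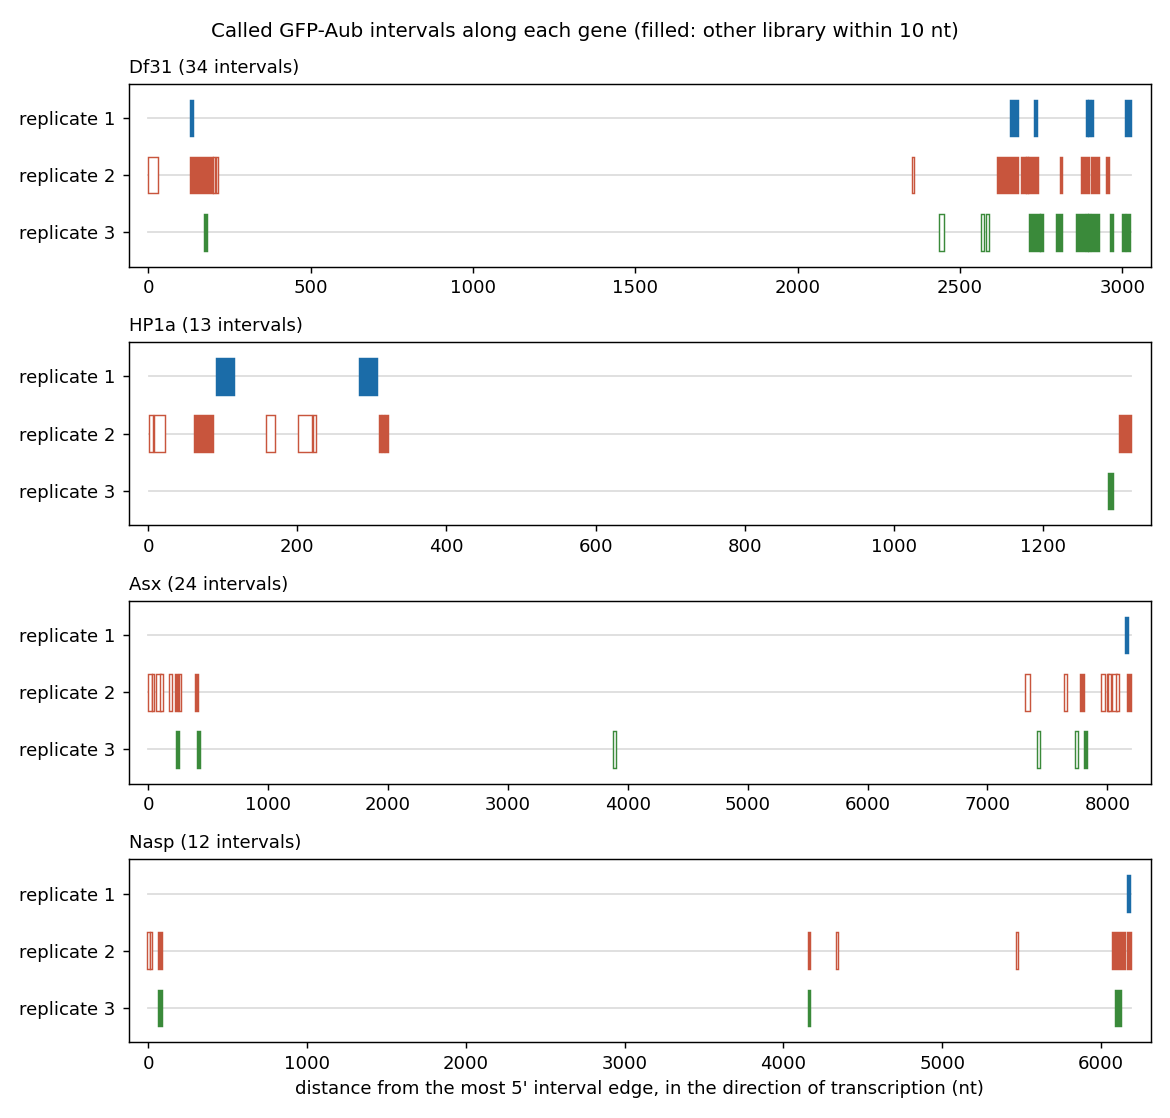
Called intervals of the 4 genes in each library, by distance in nt from the most 5′ interval edge in the direction of transcription. Filled boxes have an interval of another library within 10 nt and open boxes do not, and the narrowest boxes are widened to stay visible. The 34 intervals of Df31 gather in 2 blocks, and those of Asx lie mostly at the ends of its span. Each span is bounded by the outermost intervals themselves.

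Df31 lies on the minus strand of 2L, with intervals from position 21626894 to 21629919 of dm3 (all positions are 1-based). Intervals at most 500 nt apart were grouped into blocks. Df31 had 2 such blocks, and both held intervals of all 3 libraries. The downstream block, 673 nt long from 21626894 to 21627566, held 6 of the 7 intervals of replicate 1, 9 of 13 in replicate 2 and 13 of 14 in replicate 3. The upstream block, 212 nt long from 21629708 to 21629919, held 1, 4 and 1. The 2141 nt between them held none. In each library, most Df31 intervals therefore lay in the block nearer the 3′ end of the covered span.

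Intervals of any library no more than 10 nt apart were joined into sites, and a site was called recurrent when at least 2 libraries contributed. Df31 had 11 sites, of which 6 were recurrent and 3 contained all 3 libraries. Over all genes 5399 of 34367 sites were recurrent (15.7%) and 1112 contained all 3 libraries (3.24%). These genes were chosen with earlier results of these data known, which may have included recurrence. The counts of the members are therefore not evidence against that background. Df31 was the 1 member with a site of all 3 libraries, which 703 of the 1361 genes bound in all 3 libraries had (51.7%). It was among 100 genes with at least 3 sites of all 3 libraries, and 36 genes had more than 3.

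The first of these sites in the direction of transcription ran from 21629708 to 21629791, where replicate 1 had an interval of 9 nt, replicate 2 had 3 intervals covering 75 nt and replicate 3 had 1 of 7 nt. The 9-nt interval of replicate 1 and the 71-nt interval of replicate 2 began at the same nucleotide, 21629791. The 7-nt interval of replicate 3 lay inside the 71-nt interval but 36 nt from that of replicate 1. This site thus joined replicates 1 and 3 only through the long interval of replicate 2.

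The second site of all 3 libraries, 140 nt long from 21627166 to 21627305, held 2 intervals of replicate 1, 4 of replicate 2 and 2 of replicate 3. At its core the 5-nt interval of replicate 1 (21627186 to 21627190) lay inside intervals of 30 nt in replicate 2 and 36 nt in replicate 3. The third, 70 nt long from 21626992 to 21627061, held 3, 2 and 4 intervals. Here replicate 2 had a 25-nt interval from 21626992 to 21627016 and replicate 3 one from 21626993 to 21627017, a shift of a single nucleotide. The 3-nt interval of replicate 1, from 21627013 to 21627015, lay within both. Across Df31, 374 nt lay inside an interval of any library, 132 nt inside intervals of at least 2 libraries (35.3%) and 15 nt inside intervals of all 3.

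**Figure D2:**
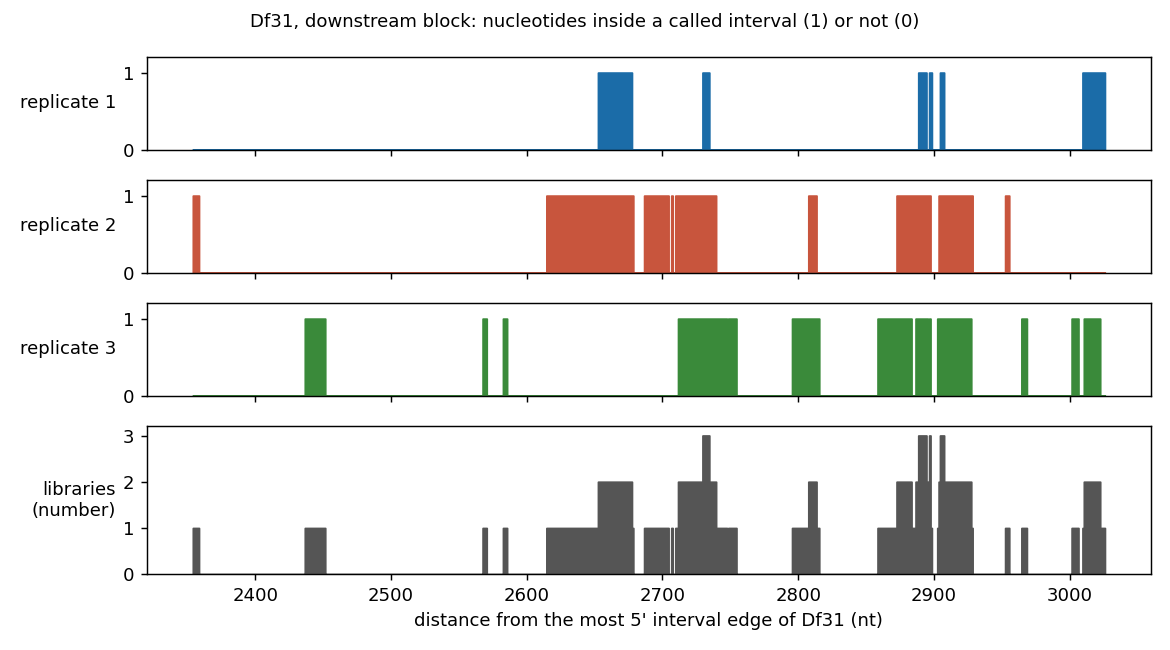
The downstream block of Df31, by distance in nt from the most 5′ interval edge of the gene. The upper 3 tracks show whether each nucleotide lay in a called interval of a library, and the lowest track gives the number of libraries. All 3 libraries coincide only over short stretches inside the sites of 140 and 70 nt.

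HP1a lies on the minus strand of 2L, with intervals from 8209755 to 8211072. It had 2 blocks. The upstream one, from 8210752 to 8211072, held both intervals of replicate 1 and 9 of the 10 in replicate 2, but none of replicate 3. The downstream one, from 8209755 to 8209785, held 1 interval of replicate 2 and the single interval of replicate 3. Replicates 1 and 3 therefore shared no block of this gene, and their nearest intervals were 980 nt apart.

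HP1a had 3 recurrent sites among 6, and each of the 3 joined intervals that lay close together without overlap. At 8210958 to 8211011, intervals of 25 nt in replicates 1 and 2 were 4 nt apart. At 8210752 to 8210790, a 25-nt interval of replicate 1 lay 2 nt from the nearest of 3 intervals of 3 to 4 nt in replicate 2. At 8209755 to 8209785, an interval of 16 nt in replicate 2 and one of 6 nt in replicate 3 were 9 nt apart. No nucleotide of this gene lay in intervals of more than 1 library. When at least 1 nt of overlap was required, the count of recurrent sites was 0.

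Asx lies on the plus strand of 2R, with intervals from 10391591 to 10399786. Its upstream block, from 10391591 to 10392019, held 8 intervals of replicate 2 and 2 of replicate 3. Its downstream block, from 10398906 to 10399786, held the 1 interval of replicate 1, 9 of replicate 2 and 3 of replicate 3. Between these blocks lay a single 25-nt interval of replicate 3, at 10395466, with 3446 empty nt upstream of it and 3415 downstream. The intervals of Asx thus lay near both ends of the covered span in replicates 2 and 3. That span is bounded by the outermost intervals themselves, so its ends are not known to be those of the transcript.

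Asx had 16 sites, the most of the 4 genes, and 4 were recurrent. Replicates 2 and 3 met at 10391817 to 10391844, at 10391982 to 10392019 and at 10399366 to 10399421. Replicates 1 and 2 met at 10399737 to 10399786, where 25-nt and 30-nt intervals overlapped. The other 12 sites came from a single library, and 28 of the 487 nt covered lay in intervals of at least 2 libraries (5.75%). All 7 intervals of Asx in replicates 1 and 3 were exactly 25 nt wide, while the 17 in replicate 2 ranged from 1 to 42 nt.

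Nasp lies on the plus strand of 3R, with intervals from 4573625 to 4579812 in 4 blocks. The last block, from 4579691 to 4579812, was the only block of Nasp with all 3 libraries, with 1, 2 and 1 intervals. Within it, the 21-nt interval of replicate 1 lay entirely inside a 26-nt interval of replicate 2 (4579787 to 4579812). The 37-nt interval of replicate 3 lay entirely inside an 84-nt interval of replicate 2 (4579691 to 4579774). The intervals of replicates 1 and 3 were 39 nt apart. The 84-nt and 26-nt intervals of replicate 2 lay further apart than the joining distance for sites, so they did not link the libraries into a single site. No site of Nasp therefore contained all 3 libraries.

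All 3 intervals of Nasp in replicate 3 overlapped an interval of replicate 2. In the first block, replicate 3 had an interval from 4573687 to 4573713 and replicate 2 one from 4573688 to 4573713. In the second, intervals of 3 nt in replicate 2 and 7 nt in replicate 3 both began at 4577783. Of the 173 nt covered in Nasp, 87 lay in intervals of at least 2 libraries (50.3%), the largest such share of the 4 genes. A single pair, the 37-nt interval of replicate 3 inside the 84-nt interval of replicate 2, supplied 37 of these 87 nt. The same share over all genes is not given here. Of its 7 sites, 4 were recurrent.

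Few edges coincided exactly in the 4 genes, which held 11, 48 and 24 intervals in replicates 1, 2 and 3. A 5′ edge was shared 3 times, at 21629791 (replicates 1 and 2) and 21627023 (replicates 1 and 3) in Df31 and at 4577783 (replicates 2 and 3) in Nasp. A 3′ edge was shared 2 times, at 21627023 in Df31 and 4573713 in Nasp, each between replicates 2 and 3. Over all distinct intervals, 5.14% of those of replicate 1 had a 5′ edge of replicate 2, 3.06% had one of replicate 3, and 1.32% of those of replicate 2 had one of replicate 3. For 3′ edges these shares were 5.19%, 3.69% and 1.5%. The shared 5′ and 3′ edges at 21627023 involved a 1-nt interval of replicate 3. These are edges of called intervals and not of reads, and no interval of the 4 genes had both edges in common between libraries.

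Taken over the 4 genes, 10 of the 11 intervals of replicate 1 lay within 10 nt of one of replicate 2 (90.9%, exact 95% binomial interval 58.7 to 99.8), against 59.9% of all distinct intervals. Of the 24 intervals of replicate 3, 16 lay that close to one of replicate 2 (66.7%, 44.7 to 84.4), against 46.6%. Of the 11 of replicate 1, 5 lay that close to one of replicate 3 (45.5%, 16.7 to 76.6), against 33.0%. All 5 were in Df31. These binomial intervals cover counting error only and treat neighbouring intervals, many of them of Df31, as independent. Because recurrence may have entered the choice of the genes, the shares are a description. Nothing is read from where the share of all intervals falls against them. From the larger to the smaller library, 12 of 48 intervals of replicate 2 recurred in replicate 1 (13.6 to 39.6%), against 7.60% of all. Of these 48, 15 recurred in replicate 3 (31.2%, 18.7 to 46.3), against 17.0%, and 7 of 24 of replicate 3 recurred in replicate 1 (29.2%, 12.6 to 51.1), against 12%. Df31 supplied 6 of the 12, 8 of the 15 and all 7 of the recurring intervals in these directions.

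**Figure D3:**
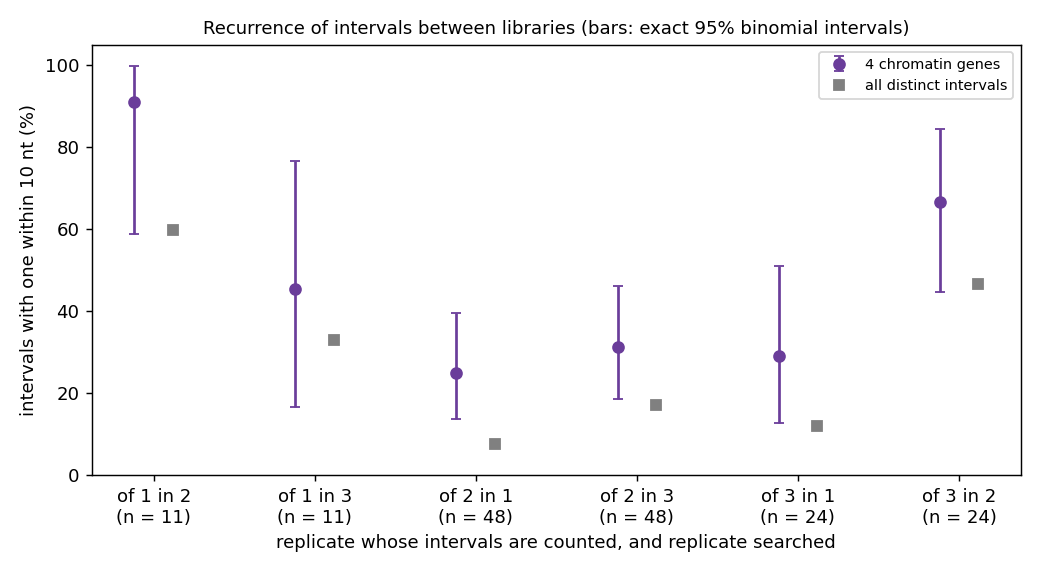
Percentage of intervals with one of another library within 10 nt, for the 4 chromatin genes (circles, with exact 95% binomial intervals and the number of intervals n) and for all distinct intervals (squares). The circles lie above the squares in all 6 directions, by 90.9% against 59.9% for replicate 1 in replicate 2. Between replicates 1 and 3, in both directions, all recurring intervals are of Df31 and none of HP1a, Asx or Nasp. Recurrence may have entered the choice of the genes, so the figure is a description.

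By gene, 27 of the 34 intervals of Df31 lay within 10 nt of an interval of at least 1 other library (79.4%). The count was 8 of 12 for Nasp (66.7%), 8 of 13 for HP1a (61.5%) and 8 of 24 for Asx (33.3%). Over all genes, 62.9%, 21.0% and 47.7% of the distinct intervals of replicates 1, 2 and 3 lay that close to one of any other library. The 3 libraries mix differently in each gene, so a gene's pooled percentage has no single value to stand beside. Intervals near both other libraries numbered 14 in Df31 and 0 in the other 3 genes. Of all distinct intervals of replicates 1, 2 and 3, 30%, 3.60% and 10.9% lay near both others. Those shares are per library, so the pooled 14 has no single value to stand beside either. Replicate 2, which held 69.6% of all intervals, took part in most of these meetings. Without replicate 2 the recurrent sites numbered 3 in Df31 and 0 in each of HP1a, Asx and Nasp. Without replicate 3 they numbered 3 in Df31, 2 in HP1a and 1 each in Asx and Nasp, and without replicate 1 they numbered 5, 1, 3 and 3. The same counts over all genes are not given here, so these are not read as particular to the 4 genes.

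Many Df31 intervals were narrow. The gene had 19 of 34 intervals narrower than 10 nt and 5 of exactly 25 nt. Its median width was 6 nt in replicate 1, 18 nt in replicate 2 and 8 nt in replicate 3, where the medians of all intervals were 25, 13 and 25 nt. Df31 was thus narrower than the library median in replicates 1 and 3, and wider in replicate 2. Of the 13 intervals of HP1a, 6 were narrower than 10 nt, as were 5 of 24 in Asx and 4 of 12 in Nasp. The share of all intervals below 10 nt is not given here. Below 5 nt lay 2, 16 and 4 intervals of the 4 genes in replicates 1, 2 and 3 (18.2%, 33.3% and 16.7%). The shares of all intervals were 6.84%, 24.3% and 9.26%. Df31 supplied 2, 4 and 4 of the intervals below 5 nt. Exactly 25 nt was the width of 2087 of all 4007 intervals in replicate 1, 3254 of 36157 in replicate 2 and 5604 of 11798 in replicate 3. The widest interval of the 4 genes was the 84-nt interval of Nasp in replicate 2, followed by those of 71 and 64 nt in Df31. These differences were not tested.

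**Figure D4:**
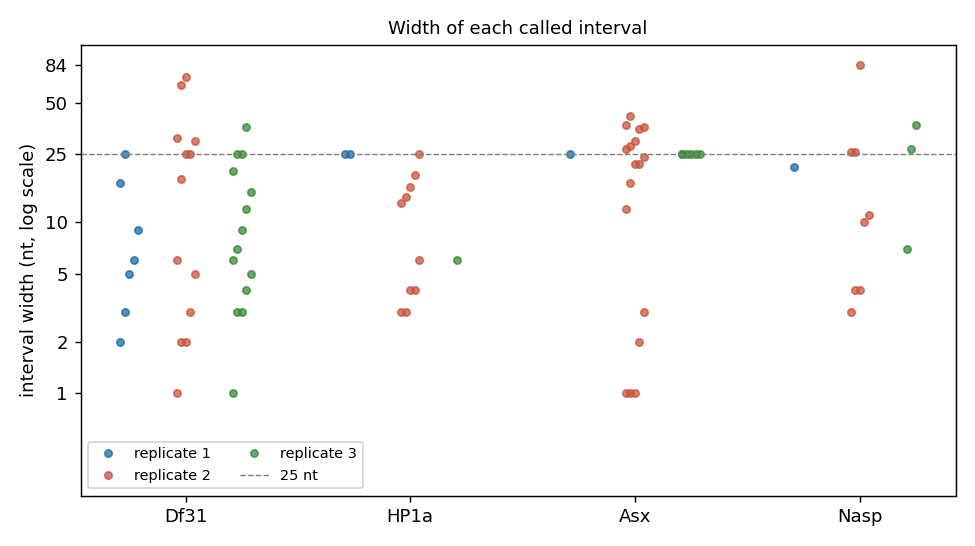
Width in nt (log scale) of each of the 83 called intervals, by gene and library, with a dashed line at 25 nt. Asx has 7 intervals of 25 nt, whereas 19 of the 34 intervals of Df31 are narrower than 10 nt. The share of all intervals below 10 nt is not given.

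Narrow neighbours affected the counts of Df31 more than those of the other genes. When intervals of a library no more than 10 nt apart were joined before counting, Df31 had 5, 7 and 9 intervals in replicates 1, 2 and 3, a total of 21 in place of 34. HP1a then had 2, 6 and 1, Asx 1, 13 and 6, and Nasp 1, 7 and 3. The same joining removed 18.2%, 31.2% and 20.8% of the intervals of the 4 genes, against 5.24%, 24.9% and 7.31% of all intervals. Df31 then ranked 200 of the 6502 genes by mean share, against 96 with separate intervals.

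As a share of the library, Df31 made up 0.175% of the intervals of replicate 1 (exact 95% binomial interval 0.0703 to 0.360), 0.0360% of replicate 2 (0.0191 to 0.0615) and 0.119% of replicate 3 (0.0649 to 0.199). The mean was 0.110% ± 0.0698 (SD, n = 3). The share in replicate 2 was the lowest, and its interval did not overlap those of the other libraries. A lower share in replicate 2 than in replicate 1 was found in 1083 of the 1361 genes bound in all 3 libraries (79.6%). The filter itself favours this, because each of these genes has at least 1 interval in replicate 1. There 1 interval is 0.0250% of the library, whereas the 8 intervals of Nasp in replicate 2 are 0.0221%. Df31 had 14 intervals in replicate 3 against 13 in replicate 2, and at least as many in replicate 3 as in replicate 2 was found in 128 of these genes (9.40%). The mean share of Df31 was 0.0649% by covered nucleotides. With only intervals at or above the median width of their library it was 0.0415% ± 0.0043 (SD, n = 3), a smaller spread. These medians were 25, 13 and 25 nt in replicates 1, 2 and 3, so the cutoffs were unlike. In replicate 1 a single Df31 interval, of 25 nt, was kept, so the smaller spread is not read as closer agreement between libraries.

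HP1a made up 0.0499% of replicate 1 (0.0060 to 0.180), 0.0277% of replicate 2 (0.0133 to 0.0509) and 0.00848% of replicate 3 (0.000215 to 0.0472), with a mean of 0.0287% ± 0.0207 (SD, n = 3). The binomial intervals of its libraries overlapped. Its share was lower in replicate 3 than in replicate 2, as in 526 of the 1361 genes bound in all 3 libraries (38.6%). It had fewer intervals in replicate 3 than in replicate 1, as had 173 of them (12.7%). The requirement of an interval in each library bears on both of these shares of genes. Without replicate 1 the mean share of HP1a was 0.0181%.

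Asx made up 0.0250% (0.000632 to 0.139), 0.0470% (0.0274 to 0.0753) and 0.0509% (0.0187 to 0.111) of replicates 1, 2 and 3, with a mean of 0.0409% ± 0.0140 (SD, n = 3). With only intervals at or above the median width its mean share was 0.0639% ± 0.0256 (SD, n = 3), above that of Df31. Nasp made up 0.0250% (0.000632 to 0.139), 0.0221% (0.00955 to 0.0436) and 0.0254% (0.00524 to 0.0743), with a mean of 0.0242% ± 0.00179 (SD, n = 3). Over all intervals Nasp had the smallest SD of the 4 genes, but its value in replicate 1 came from a single interval. With only intervals at or above the median width the mean share of Nasp was 0.0155% ± 0.0153 (SD, n = 3), and Df31 had the smallest SD. The single Nasp interval of replicate 1, of 21 nt, fell below the 25-nt median of that library, and Df31 kept a single interval there. The change in SD order therefore rests on single intervals. By mean share over all intervals Df31, Asx, HP1a and Nasp ranked 96, 687, 1047 and 1212 among the 6502 genes. The order of Df31 and Asx turned among intervals at or above the median width. Each had a single such interval in replicate 1, so the turn came from replicates 2 and 3, with unlike medians of 13 and 25 nt.

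**Figure D5:**
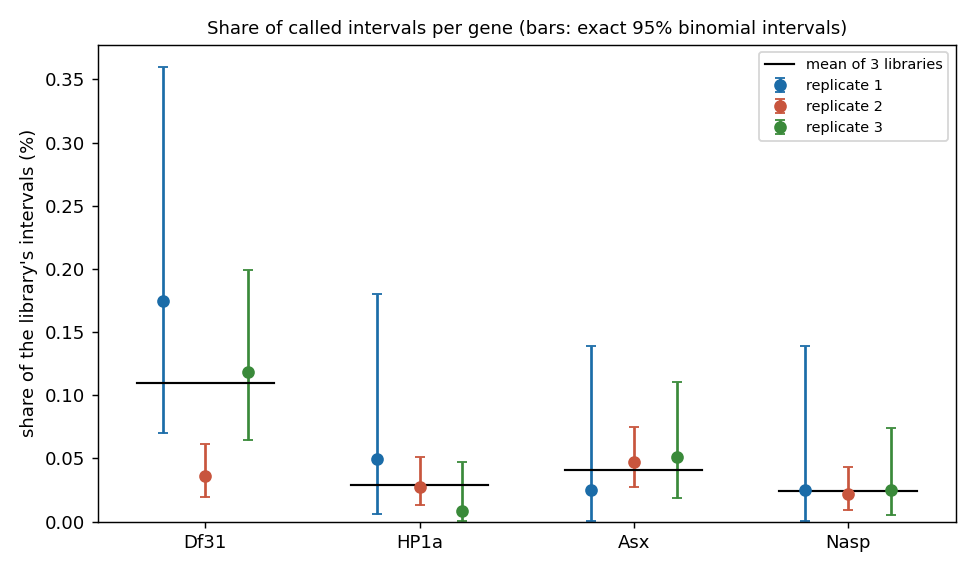
Share of each library's intervals (%) held by each gene, with exact 95% binomial intervals and the mean of 3 libraries as a line. Over all intervals Df31 lies at 0.175%, 0.0360% and 0.119% in replicates 1, 2 and 3, and the 3 values of Nasp lie between 0.0221% and 0.0254%. With only intervals at or above the median width the SD is smaller for Df31 (0.0043) than for Nasp (0.0153). In replicate 1 that setting keeps a single interval of Df31 and none of Nasp.

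To set the genes against each other, each share was divided by the length in kb between the outermost intervals of the gene. These lengths were 3026 nt for Df31, 1318 nt for HP1a, 8196 nt for Asx and 6188 nt for Nasp. They may include introns, and they are bounded by the intervals themselves. On this scale Df31 averaged 0.0363% of a library per kb ± 0.0231 and HP1a 0.0218% ± 0.0157 (SD, n = 3 each). Asx averaged 0.0050% ± 0.0017 and Nasp 0.0039% ± 0.00029. Df31 and HP1a did not differ beyond their spread, with Df31 higher in replicates 1 and 3 and lower in replicate 2 (mean difference 0.0145 ± 0.0214). Asx and Nasp did not differ beyond theirs either (0.0011 ± 0.0018). HP1a was above Asx in all 3 libraries, but the mean difference of 0.0168 was smaller than its SD of 0.0173. In replicate 3 the lead was only 0.00023 and rested on a single interval of HP1a. Df31 was above Asx and Nasp in all 3 libraries, with mean differences of 0.0313 ± 0.0243 and 0.0324 ± 0.0228. Part of this order comes from the lengths. Before division, HP1a had a lower share than Asx in replicates 2 (0.0277% against 0.0470%) and 3 (0.00848% against 0.0509%). Df31 was then below Asx in replicate 2 (0.0360%). Transcript abundance was not measured, so a higher number of intervals cannot be told apart from more transcript.

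The 4 genes were compared with genes of known symbol and intervals in all 3 libraries, of which 11 were not members. Likeness was measured as the Euclidean distance between log2 shares in the 3 libraries. Nasp had the closest neighbour, mfas, at a distance of 0.32, with 1, 10 and 3 intervals. Its next neighbours were Meltrin at 0.67 and ScsbetaA, a subunit gene of succinyl-CoA synthetase, at 0.68. Asx was closest to CrebB, a CREB-family transcription factor gene, at 1.07, then to CG17159 at 1.16 and Swim at 1.26. HP1a was closest to metro (1.27), Meltrin (1.41) and mfas (1.87). Df31 had the most distant neighbours, with CG42353 at 1.54, LanA, the laminin alpha chain gene, at 1.59 and Swim at 2.21. With 3 libraries and few named genes, these distances describe similar counts only.

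Other chromatin genes could not be counted. Of the 22 symbols listed for heterochromatin and HP1 genes, the 32 for Polycomb and trithorax genes and the 29 for histone chaperone and chromatin assembly genes, 1, 1 and 2 had an ID that could be matched. These were the 4 genes themselves.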

How the data were processed

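GFP-Aub iCLIP was analysed in 3 libraries of 1 group. The authors deposited called intervals per library with position, strand, gene ID and a score of 0. The build was dm3, and TopHat2 2.0.13 and CASAVA 1.4 were among the tools, per the submitters' processing notes. For the peak caller, its threshold and the handling of duplicates, the sources used here give no details. Other deposited columns were chromosome, start and end in nt.

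Intervals of the 4 genes were taken by gene ID. Distances were measured between edges on the same strand, against all distinct intervals of the other library. Sites joined intervals within 10 nt and blocks within 500 nt. Blocks and within-library joining were chosen after seeing the data. Binomial intervals are exact (Clopper-Pearson). No test was run, because there is 1 group and the members and lists were chosen with earlier results of these data known. The named genes were the members, their sites of all 3 libraries, the top genes of the chromatin lists and the 3 nearest genes by share. Calculations ran in Python 3.11.15 with scipy 1.17.1, pandas 2.3.3 and numpy 2.4.6, and figures in matplotlib 3.10.9. The distance search was tested on simulated data. For 300 of 300 real intervals it equalled an exhaustive search.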

Additional observations from a re-analysis of the deposited data

How the results depend on the processing

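Of 69 alternative values, 47 moved by less than the SD between libraries or, for counts, by no more than 1.5 times. Leaving out a library cannot move a mean of 3 by its SD. For recurrent sites (6 in Df31, 3 in HP1a, 4 in Asx, 4 in Nasp), requiring all 3 libraries gave 3, 0, 0 and 0. A distance of 50 nt gave 2 in Df31, where sites merged. Overlap gave 0 in HP1a. Intervals at or above the median width gave 2 in Df31, 1 in HP1a and 2 in Nasp. Leaving out each library gave 3 to 5, 0 to 2, 0 to 3 and 0 to 3 in this order of genes. The mean share of Asx (0.0409%) was 0.0639% with intervals at or above the median width, above the 0.0415% of Df31 in that setting (0.110% over all intervals). That of Nasp (0.0242%) was 0.0155% with them, 0.0269% by covered nucleotides and 0.0265% with neighbours joined first, an alternative chosen after seeing the data, as was a minimum width of 5 nt. Of 4 listed chromatin genes bound in all 3 libraries, 1 (Df31) had at least 2 intervals in each. Fewer intervals or libraries lower these counts by construction. The lists matched only the 4 members, chosen with earlier results known, so the count of 4 carries no weight. Of its 5 alternatives, 4 are among the 47 values above. The share of all genes with at least 2 intervals in each library is not given. Other causes were not tested. No paired analysis was possible because the 3 libraries form a single group. With 1 or 2 intervals in replicate 1 for 3 of the genes, a single interval sets their values there. At or above the median width, 25 nt in replicate 1, a single interval sets the value of Df31 there too, and Nasp has none. The depth in reads is unknown.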
